A study of Rattus norvegicus with 172 samples.

Results

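Collagen genes were followed in the livers of male Fischer 344 rats that received furan or 3-methylfuran for 90 days. The members are the genes whose symbol in the deposited comparison tables has the form Col, a number, a and a number. The rule found 41 of 19777 genes with a symbol and itself uses no measured value. They comprise 11 fibrillar collagens, 8 basement membrane collagens and 22 others (beaded filament, fibril-associated, short-chain network, transmembrane, anchoring and unclassified types). All 41 are in the authors' deposited furan table and 39 in their 3-methylfuran table. The symbols Col6a3, Col9a1, Col21a1 and Col23a1 were looked for and are in neither, so the members are not all collagens.

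Liver mRNA was sequenced in 70 rats in 2 experiments, each with its own controls. In the furan experiment 8 rats were controls, and 8, 8, 7 and 7 rats received 0.03, 0.12, 0.5 and 2.0 mg furan per kg body weight per day. In the 3-methylfuran experiment 8 rats were controls, and 8 rats each received 0.02, 0.075 or 1.0 mg 3-methylfuran per kg body weight per day. Furan is a small oxygen-containing ring, and 3-methylfuran is the same ring with a methyl group. The design set the derivative beside its parent compound. All rats share the sex, the strain and the duration, each library is 1 rat, and the labels read here state no age. Furan libraries were made with a later version of the stranded mRNA kit than 3-methylfuran libraries. Library kit and compound cannot be told apart, so levels are compared only within an experiment.

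Collagens are trimeric proteins of the extracellular matrix. Their chains are hydroxylated and assembled in the endoplasmic reticulum, trimmed outside the cell and crosslinked by lysyl oxidases. Types I, III and V form fibrils, type IV forms the network of basement membranes, and types XII, XVI and XX attach to fibrils. In liver, stellate cells and portal fibroblasts are the best-known makers of fibrillar collagen, which accumulates in fibrosis, while hepatocytes are a known source of the type XVIII chain.

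Library depth, summed over the 2 or 3 sequencing runs of a rat, was 11410459 to 27664338 counts in the furan experiment and 11084613 to 50047098 in the 3-methylfuran experiment. Hepatocyte markers, including Alb (serum albumin), were present in every rat. Their summed level was 194000 to 220000 CPM (read counts scaled to library size, with TMM factors) in furan controls and 118000 to 181000 at furan 2.0. Rat MD063_L of the furan 0.5 group stood apart from its group in several collagens. Counts of called members are given with and without it below, and the other furan 0.5 values include it. Whole liver was sequenced, so more cells of a type and more RNA per cell cannot be told apart. Differences are log2 fold changes (log2FC) with a standard error (SE) from the edgeR quasi-likelihood F test. A gene is said to have risen or fallen at a Benjamini-Hochberg adjusted p under 0.05 over all genes of the comparison.

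At furan 2.0 the collagens that rose included the fibril chains Col1a1, Col3a1, Col5a2 and Col5a3. The basement membrane chains Col4a1, Col4a2 and Col4a3 and the type VI chains Col6a1 and Col6a2 rose too, and Col18a1 fell. Of the 41 members, 27 had enough counts to be tested: 13 rose and 1 fell. Over all 12727 genes tested, 24.0% rose and 22.5% fell. The median log2FC was 0.65 over the tested members and 0.02 over all genes. Members that passed the count filter only through the treated rats had to differ, so these counts describe the tested members and not all 41. By class, 5 of 8 tested fibrillar members rose. Among 6 basement membrane members 3 rose and 1 fell, and 5 of 13 others rose.

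Col1a1, the alpha-1 chain of type I collagen, had the largest log2FC of the members at furan 2.0. Controls had 4.92 to 19.5 CPM (median 9.64). The 7 rats at furan 2.0 had 186 (ME081_L), 184 (ME082_L), 86.1 (ME083_L), 108 (ME085_L), 12.1 (ME086_L), 9.01 (ME089_L) and 13.7 CPM (ME092_L). The first 4 of these rats lay above every control, and the other 3 lay inside the control range. The group mean was 85.5 ± 78.1 CPM (SD, n = 7) against 10 ± 4.52 (SD, n = 8), and the log2FC was 3.09 ± 0.64 (SE; edgeR quasi-likelihood adjusted p = 0.00018). Leaving out each of the 7 rats in turn gave 2.8 to 3.3. Col1a1 is 1 of 7 members whose span overlaps a protein-coding gene in the GRCr8 annotation. The strand setting of the counting is not given, so reads shared with that gene, Sgca, cannot be told apart, and Sgca itself had at most 0.268 CPM at furan 2.0.

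Col3a1, the chain of type III collagen, had its level divided over the rats in the same way. Levels at furan 2.0 were 506.45, 588, 340, 406, 130, 135 and 127 CPM, in the rat order used for Col1a1. Controls spanned 117 to 225 CPM, so 4 rats were above all controls and 3 were within their range. The log2FC was 1.01 ± 0.31 (edgeR adjusted p = 0.00797). The ratio of Col3a1 to Col1a1 counts within a rat was 11.6 to 23.8 in controls. It was 2.73, 3.2, 3.96 and 3.74 in ME081_L, ME082_L, ME083_L and ME085_L and 10.7, 15 and 9.25 in ME086_L, ME089_L and ME092_L. Only ME089_L of the 7 was not below every control. These are ratios of counts, not corrected for gene length.

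Type V collagen, which sits inside type I fibrils, is made of chains from Col5a1, Col5a2 and Col5a3. Col5a2 had 33.5, 38.3, 22.3, 26, 9.14, 9.61 and 11.6 CPM in the same rat order, against 9.88 to 13.7 in controls (log2FC 0.86 ± 0.24, edgeR adjusted p = 0.00391). Rats ME086_L and ME089_L were below the lowest control. Col5a3 had 1.34, 1.38, 1.01, 1.03, 0.293, 0.552 and 0.453 CPM against 0.0691 to 0.619 (log2FC 1.41 ± 0.38, edgeR adjusted p = 0.00212). Again 4 rats were above all controls and 3 were among them. Col5a1 had 40, 47.0, 28.2, 40.9, 19.3, 19.5 and 19.5 CPM against 18.8 to 28.7. Its log2FC of 0.41 ± 0.18 missed the threshold (edgeR adjusted p = 0.0667).

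**Figure D1:**
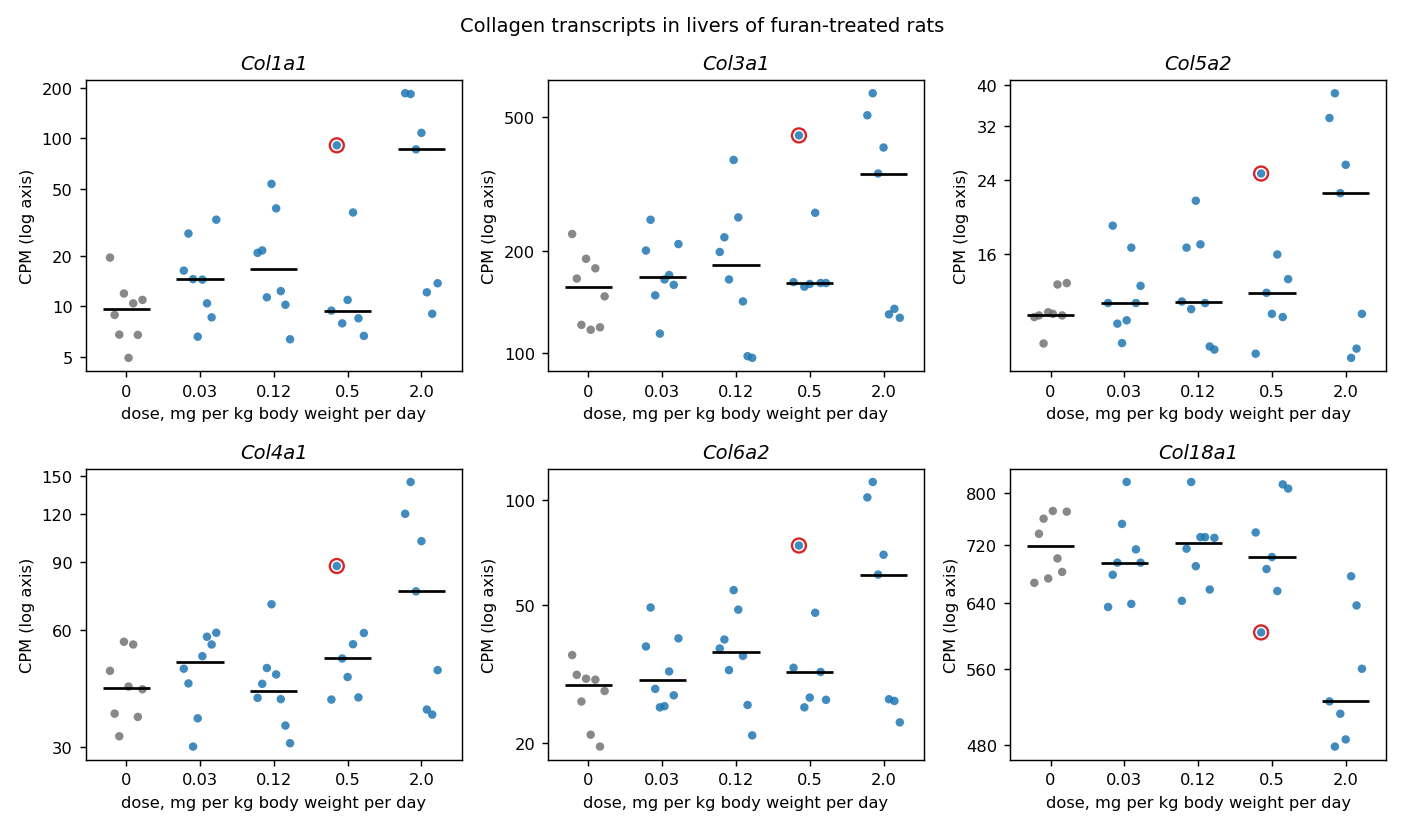
CPM (log axis) of 6 collagen genes in each rat of the furan experiment, by dose in mg per kg body weight per day; points are rats (controls grey), bars are group medians and the red ring marks rat MD063_L. At 2.0 the rats lie in an upper set of 4 and a lower set of 3 for Col1a1, Col3a1, Col5a2, Col4a1 and Col6a2, while Col18a1 reaches down to 478 CPM.

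The remaining fibrillar members were low or steady. Col11a2, a type XI chain best known in cartilage, had 0.822 to 1.59 CPM at furan 2.0 against 0.236 to 0.894 in controls (log2FC 0.88 ± 0.27, edgeR adjusted p = 0.00792). Its highest rats were ME081_L, ME085_L, ME089_L and ME083_L, and ME082_L, high in Col1a1, was the lowest of the 7. Col27a1, a fibril-forming chain, had 22.1 to 32.9 CPM against 18.5 to 32.1, and its log2FC was 0.12 ± 0.16 (95% interval -0.2 to 0.44). Col24a1 had a log2FC of -0.43 ± 0.23 (edgeR adjusted p = 0.128).

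Col1a2 encodes the partner chain of Col1a1 in type I collagen and was nearly without counts. It had 0.163, 0.13, 0.176 and 0.0892 CPM in ME081_L, ME082_L, ME083_L and ME085_L and 0 in the other 3 rats at furan 2.0. In controls it was 0 in 7 of 8 rats and 0.0639 CPM at most. The gene did not pass the count filter, and the reason for its low counts beside Col1a1 was not tested. In the authors' deposited table its adjusted p at furan 2.0 was 0.15. Col15a1, a basement membrane zone collagen, was similar, with at most 0.0446 CPM at furan 2.0 and 0.0781 in controls.

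Basement membrane type IV is encoded by pairs of genes that start next to each other on opposite strands. In RefSeq on GRCr8 (the counts were made on Rnor 6.0), 76 bases lie between the starts of Col4a1 and Col4a2, 412 between those of Col4a3 and Col4a4 and 1414 between those of Col4a5 and Col4a6. The stretch shared by Col4a1 and Col4a2 is printed because the 2 genes moved together. The 150 bases before the starts of Col6a1 and Col18a1 are printed because these genes, both on chromosome 20, moved in opposite directions at furan 2.0, and those of Col5a2 stand for the fibrillar members. All are 5′ to 3′. The Col4a2-Col4a1 stretch reads in the direction of Col4a1 at chr16:84885521-84885596 (plus strand). Col5a2 is at chr9:55090152-55090301 (minus strand), Col6a1 at chr20:11905540-11905689 and Col18a1 at chr20:11473495-11473644 (both plus strand). Capitals mark GGGCGG or its reverse complement.
Col4a2-Col4a1: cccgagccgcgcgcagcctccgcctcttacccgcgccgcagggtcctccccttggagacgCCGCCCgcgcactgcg
Col5a2: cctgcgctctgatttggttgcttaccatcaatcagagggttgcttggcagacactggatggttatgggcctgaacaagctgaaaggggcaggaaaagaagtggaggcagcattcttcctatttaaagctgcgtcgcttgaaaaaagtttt
Col6a1: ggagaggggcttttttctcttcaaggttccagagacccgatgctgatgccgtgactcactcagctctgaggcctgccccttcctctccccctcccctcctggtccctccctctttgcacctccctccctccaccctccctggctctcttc
Col18a1: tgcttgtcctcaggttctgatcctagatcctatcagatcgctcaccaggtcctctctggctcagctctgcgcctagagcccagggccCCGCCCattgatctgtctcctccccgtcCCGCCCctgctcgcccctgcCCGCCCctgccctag

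Windows of 300 bases (250 before the start and 50 after it) were on hand for 32 of the 41 members, 35 windows in all. Col1a1, Col3a1, Col6a2 and Col12a1, which rose at furan 2.0, had no window, so the shares below leave them out. Each motif was searched on both strands. GGGCGG was in 19 of the 35 member windows (54.3%) and in 33.1% of all 33469 windows. CCAAT was in 34.3% of member windows and 37.5% of all, and TATAAA in 11.4% and 14.2%. A match describes the letters only.

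Col4a1 had 120, 145, 75.7, 102, 37.5, 36.4 and 47.4 CPM at furan 2.0, in the rat order used for Col1a1, against 32 to 56.1 in controls. Col4a2 had 55.4, 68.9, 38.8, 49.8, 20.0, 18.6 and 24.9 CPM against 18.1 to 30.9. In both genes 4 rats were above all controls and 3 were among them. The log2FC was 0.89 ± 0.24 for Col4a1 (edgeR adjusted p = 0.00237) and 0.70 ± 0.21 for Col4a2 (edgeR adjusted p = 0.00791). The ratio of the 2 genes' counts within a rat was 1.88 to 2.16 at furan 2.0 and 1.52 to 2.07 in controls.

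The other type IV chains, which form a network known from kidney and lung, did not follow as a group. Col4a3 rose, from 0.275 to 1.27 CPM in controls to 2.08, 1.69, 1.19, 1.47, 1.27, 0.884 and 2.02 CPM (log2FC 0.99 ± 0.26, edgeR adjusted p = 0.00217). Here ME092_L, low in Col1a1, was the second highest rat. Its divergent partner Col4a4 had 5.52 to 11 CPM and a log2FC of 0.09 ± 0.21 (95% interval -0.34 to 0.51). Col4a5 had a log2FC of 0.22 ± 0.15 (edgeR adjusted p = 0.231).

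Col18a1 encodes the basement membrane chain whose released end is endostatin. At furan 2.0 it had 524.1, 478, 510.97, 485, 676, 637 and 560 CPM, against 667 to 772 in controls. ME086_L was within the control range, and the other 6 rats were below it. The log2FC was -0.38 ± 0.07 (edgeR adjusted p = 5.17e-05), and -0.44 to -0.33 when single rats were left out. The 4 lowest rats were the 4 with the highest Col1a1. Hepatocyte markers moved with it: 8 of 10 fell at furan 2.0, beside 22.5% of all genes. Alb fell by 0.55 and Serpina1 by 0.56 on the log2 scale, and Apoa1 rose. The part of these markers, and that of the TMM factors, in the fall of Col18a1 was not tested.

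Type VI collagen forms beaded filaments around cells. Its chain gene Col6a3 had no entry under that symbol. Col6a1 had 93.4, 104, 53.6, 71, 29.2, 26.5 and 27.5 CPM at furan 2.0 against 25.2 to 37.6 in controls (log2FC 0.85 ± 0.24, edgeR adjusted p = 0.00384). Col6a2 had 102, 113, 61.1, 69.7, 26.7, 26.4 and 22.9 CPM against 19.5 to 35.8 (log2FC 1.11 ± 0.29, edgeR adjusted p = 0.00173). The same 4 rats were above all controls. Col6a5 and Col6a6 had log2FC values of 0.04 ± 0.31 and 0.08 ± 0.18.

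Of the fibril-associated members, Col12a1 had 11, 14.1, 7.62, 10.9, 2.49, 2.93 and 2.77 CPM at furan 2.0 against 2.5 to 4.92 in controls (log2FC 1.14 ± 0.37, edgeR adjusted p = 0.012). With limma voom its adjusted p was 0.0594. Col16a1 rose with a log2FC of 0.85 ± 0.33 (edgeR adjusted p = 0.0323). Col20a1 rose by 0.65 ± 0.23 (edgeR adjusted p = 0.0209), which became 0.0551 without ME085_L. Col14a1 had 15 to 38.7 CPM and a log2FC of 0.09 ± 0.20. The transmembrane member Col13a1 had a log2FC of -0.44 ± 0.23 (edgeR adjusted p = 0.106), and the short-chain member Col8a2 0.74 ± 0.37 (edgeR adjusted p = 0.0962).

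The order of the rats recurred across the members. ME081_L, ME082_L, ME083_L and ME085_L were the 4 highest of the 7 rats in 14 of the 27 tested members: in 10 of the 13 that rose and in Col5a1, Col8a1, Col8a2 and Col14a1. This set of rats was named after the values were seen, and no average or test was made of it. In single rats, 16, 17, 14 and 17 tested members were above the highest control in these 4 rats, and 1, 3 and 3 in ME086_L, ME089_L and ME092_L. The order and these counts were not taken over all genes, so they do not set the collagens apart from other genes. Summed hepatocyte markers were 135000, 120000, 143000 and 118000 CPM in these 4 rats and 181000, 177000 and 144000 in ME086_L, ME089_L and ME092_L. In 0 of the 27 tested members were all 7 rats above, or all 7 below, every control. Over all 12727 genes tested, all 7 were above in 5.77% and all 7 below in 5.57%. All 7 rats carry the same dose label, and nothing in the labels separates them.

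**Figure D2:**
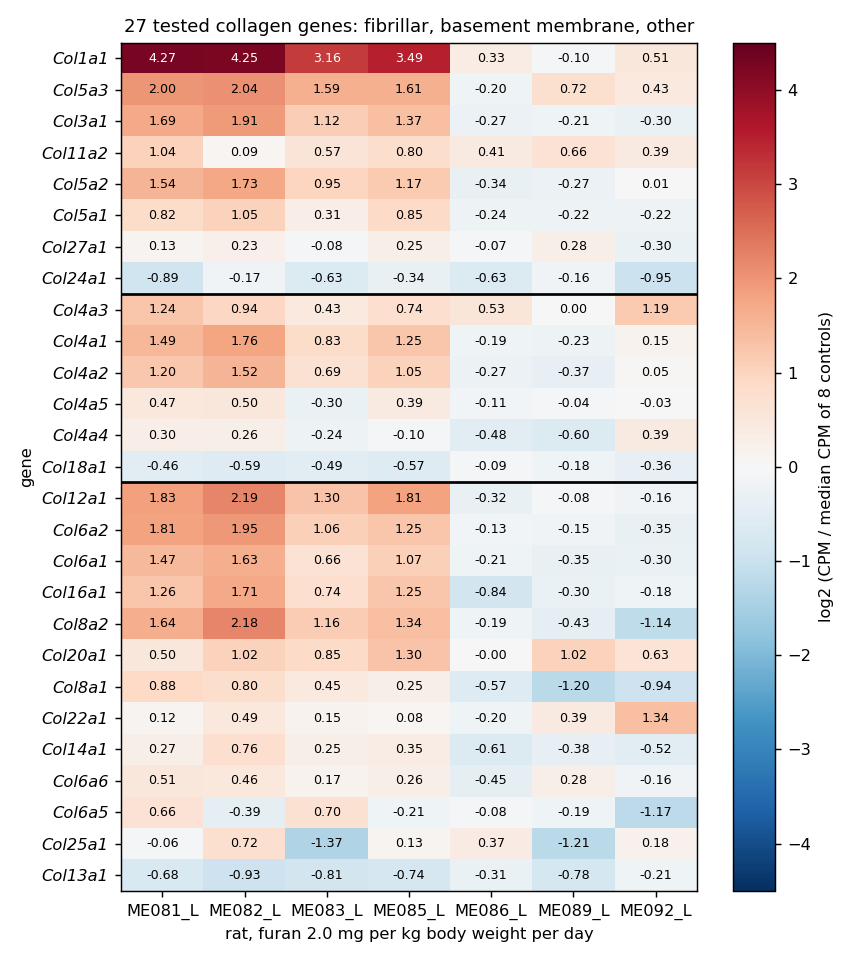
Log2 ratio of each furan 2.0 rat's CPM to the median CPM of the 8 furan controls for the 27 tested collagen genes, with lines between fibrillar, basement membrane and other members. The 4 columns on the left are raised over most rows, from 4.27 for Col1a1 in ME081_L, and the 3 on the right lie nearer to 0 in rows such as Col3a1 (-0.27, -0.21 and -0.30).

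Of the 14 members that failed the count filter, Col7a1, the anchoring fibril chain, had 2.04, 2.81, 1.19 and 1.29 CPM in those 4 rats and 0.202 to 0.497 in the other 3, against 0 to 0.409 in controls. Col9a2, a fibril-associated chain known from cartilage, had 1.59, 2.21, 1.15 and 1.61 CPM and 0.0489 to 0.806, against 0.135 to 0.531. These members were named after their values were seen. The authors' deposited table calls 17 members higher and 1 lower at furan 2.0. It holds all 14 calls made here and adds Col4a6, Col7a1, Col9a2 and Col9a3. The fold change in the authors' deposited table was 7.24 for Col1a1, 6.18 for Col7a1 and -1.3 for Col18a1, where the minus sign marks a decrease.

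At the lower furan doses 0 of the 27 tested members were called by edgeR, DESeq2 or limma voom. Over all genes edgeR called 3.16% at 0.5, 1.94% at 0.12 and 0.0707% at 0.03. At an unadjusted p under 0.05 there were 2 members at 0.5 (Col20a1 and Col4a3, log2FC 0.64 ± 0.24 and 0.61 ± 0.28), 1 at 0.12 (Col27a1, -0.41 ± 0.16) and 0 at 0.03. The members' median log2FC was 0.22, 0.14 and 0.20 at 0.5, 0.12 and 0.03, beside 0.01, 0 and 0 over all genes. The 3 doses share the same 8 control rats.

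Single rats at lower doses were high. Col1a1 spanned 6.65 to 91.0 CPM at 0.5 (median 9.41), 6.35 to 53.6 at 0.12 (median 16.5) and 6.58 to 32.8 at 0.03 (median 14.4). The 91.0 CPM belonged to MD063_L, and the next rat had 36.2. MD063_L also had 441 CPM of Col3a1, 88.0 of Col4a1 and 24.8 of Col5a2, and 15 of the 27 tested members were above the highest control in it. It had 0 counts of Col1a2. Without it the count of called members at the lower doses was still 0. It was not the only such rat: 14 tested members were above the highest control in MA022_L (0.03) and in MB045_L (0.12), and 12 in MD069_L (0.5). Such counts were not made over all genes.

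Furan 2.0 compared with furan 0.5 gave 2 higher members, Col1a1 (log2FC 1.80 ± 0.63, edgeR adjusted p = 0.026) and Col12a1 (1.01 ± 0.38, edgeR adjusted p = 0.0411). Col18a1 was lower (-0.37 ± 0.08, edgeR adjusted p = 0.000243). Over all genes 15.6% were higher and 16.5% lower. This count rests on single rats. Without MD063_L, in a comparison chosen after its values were seen, 8 members were higher and 1 lower. Without ME086_L, ME089_L or ME092_L 7 or 8 were higher, and without ME081_L or ME082_L none was higher, while 1 was lower each time.

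Of the 13 members that rose at furan 2.0, Col11a2 and Col20a1 rose at 3-methylfuran 1.0 and Col6a1 and Col6a2 fell. Another 7 were tested and not called, Col1a1 and Col3a1 among them, and Col4a3 and Col5a3 were not tested. Of 23 tested members 2 rose and 3 fell, and over all genes 21.2% rose and 22.5% fell. The median log2FC was -0.01, against 0 over all genes. The authors' deposited table calls 3 members higher and 4 lower, adding Col7a1 and Col6a5.

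Col20a1, a fibril-associated chain, had 2.93, 1.87, 1.42, 2.0, 0.942, 1.47, 1.68 and 1.73 CPM in the 8 rats at 3-methylfuran 1.0, against 0.223 to 0.611 in controls. Col11a2 had 3.04, 2.4, 2.1, 1.81, 1.44, 1.98, 1.262 and 1.6 CPM against 0.332 to 0.927. In both, all 8 rats were above every control, which was so for 2 of the 23 tested members and for 5.41% of all 11930 genes tested. All 8 rats were below every control in 0 members and in 6.08% of all genes. The log2FC was 2.04 ± 0.28 for Col20a1 (edgeR adjusted p = 3.78e-07) and 1.58 ± 0.27 for Col11a2 (edgeR adjusted p = 1.08e-05). Both are low in counts. Col20a1 overlaps Chrna4 in the GRCr8 annotation, and reads shared with it cannot be told apart. Chrna4 itself had at most 0.107 CPM in these rats.

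**Figure D3:**
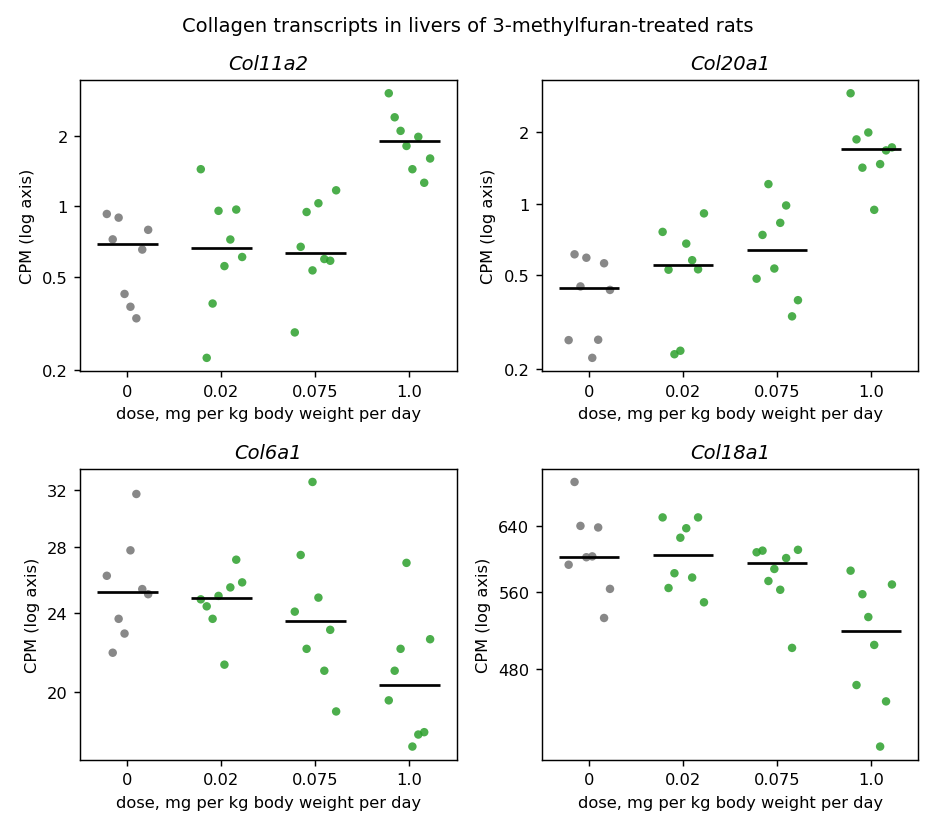
CPM (log axis) of 4 collagen genes in each rat of the 3-methylfuran experiment, by dose in mg per kg body weight per day; points are rats (controls grey) and bars are group medians. At 1.0 all 8 rats lie above the controls for Col11a2 and Col20a1, and the rats overlap the controls for Col6a1 and Col18a1.

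Col6a1, Col6a2 and Col18a1 fell at 3-methylfuran 1.0 with overlapping groups. The part of the TMM factors in these falls was not tested. Col6a1 had 17.6 to 27 CPM (median 20.3) against 21.9 to 31.7 (log2FC -0.30 ± 0.09, edgeR adjusted p = 0.00699). Col6a2 had 15.3 to 24.1 CPM (median 18.7) against 19.1 to 25.4 (log2FC -0.29 ± 0.10, edgeR adjusted p = 0.0148). Col18a1 had 411 to 585 CPM (median 518) against 531.5 to 699 (log2FC -0.26 ± 0.07, edgeR adjusted p = 0.00161). Col1a1 had 3.0 to 9.19 CPM against 4.47 to 8.04, and its log2FC of -0.27 ± 0.22 has a 95% interval of -0.71 to 0.17. Col3a1 had a log2FC of 0.07 ± 0.10 and Col5a2 of -0.01 ± 0.09.

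With 1 sequencing run per rat in place of the sum, 1 of these 5 calls was made, that of Col18a1. Col11a2 and Col20a1 then had too few counts to be tested. Col6a1 had a log2FC of -0.19 (edgeR adjusted p = 0.183) and Col6a2 of -0.18 (edgeR adjusted p = 0.194). At 0.075 and 0.02 mg per kg, 0 of 23 members were called by edgeR, DESeq2 or limma voom. Over all genes edgeR called 1.37% and 0.0335%. At an unadjusted p under 0.05 there were 1 member (Col20a1 at 0.075, log2FC 0.67 ± 0.31) and 0.

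**Figure D4:**
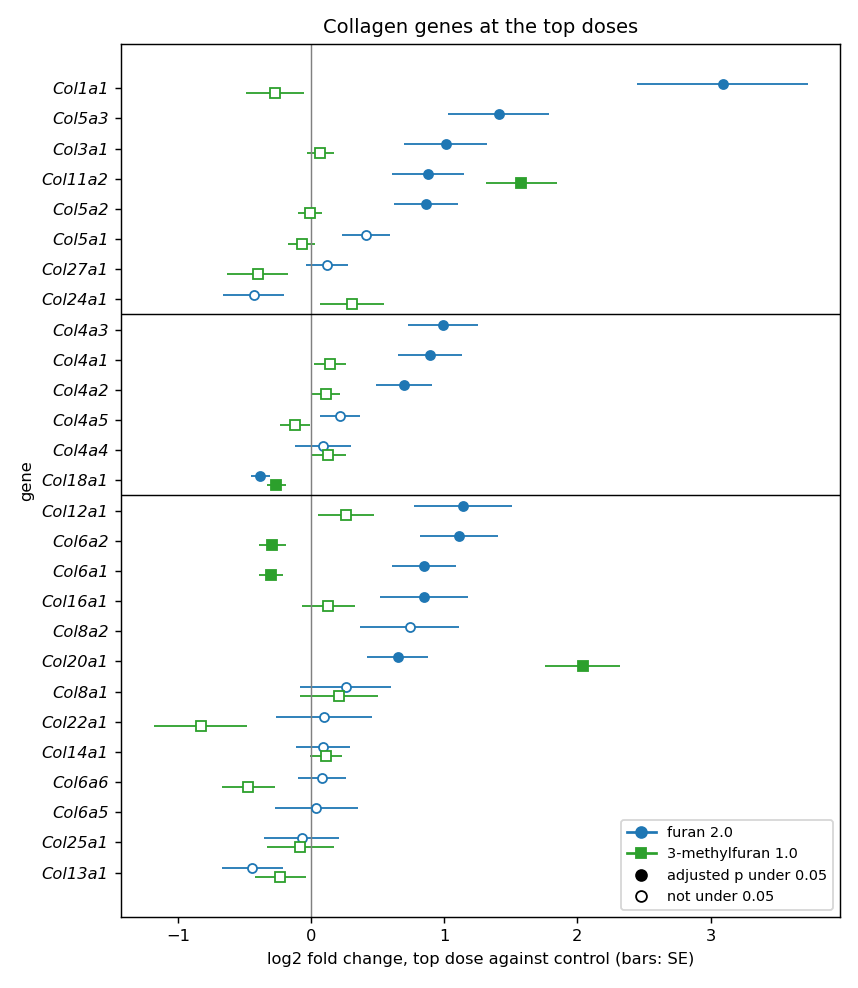
Log2 fold change against the experiment's own controls for the collagen genes tested at furan 2.0 (circles, 7 rats against 8) and 3-methylfuran 1.0 (squares, 8 rats against 8), with SE bars; filled symbols have an adjusted p under 0.05. Col1a1 lies at 3.09 for furan and -0.27 for 3-methylfuran, and Col20a1 at 0.65 and 2.04.

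The furan 2.0 effect minus the 3-methylfuran 1.0 effect was tested as 1 contrast in a fit over both experiments. The doses differ, at 2.0 and 1.0 mg per kg body weight per day, so this compares the top doses and not the compounds at 1 dose. Of 29 tested members 5 had a higher effect of furan and 1 a lower effect, and over all genes 3.52% were higher and 3.72% lower. The difference on the log2 scale was 3.35 ± 0.73 for Col1a1 (edgeR adjusted p = 0.00216), 1.39 ± 0.32 for Col6a2 (edgeR adjusted p = 0.00333) and 1.14 ± 0.27 for Col6a1 (edgeR adjusted p = 0.00457). It was 1.53 ± 0.47 for Col4a3 (edgeR adjusted p = 0.0325) and 0.86 ± 0.27 for Col5a2 (edgeR adjusted p = 0.0397). Col20a1 had the lower effect of furan, at -1.40 ± 0.37 (edgeR adjusted p = 0.0129).

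For several members the difference between the top doses missed the threshold. Col3a1 had 0.93 (95% interval 0.25 to 1.61, edgeR adjusted p = 0.0788). Col4a1 had 0.74 (0.18 to 1.29) and Col18a1 -0.13 (-0.33 to 0.06). Col11a2 had -0.72 (-1.5 to 0.07). Without ME086_L, ME089_L or ME092_L 10 members passed, and without any other furan 2.0 rat 4 or 5.

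Genes that make, crosslink and break down collagen were read from fixed lists. Of 20 tested genes of synthesis and processing 6 rose and 3 fell at furan 2.0. Over all genes tested 24.0% rose and 22.5% fell, so these counts are not far from the shares of all genes. The same shares stand beside the other list counts at furan 2.0. Plod2, which hydroxylates the lysines used in crosslinks, had 9.37, 11.1, 5.46, 6.29, 1.12, 1.38 and 2.17 CPM against 0.413 to 1.58 in controls (log2FC 2.40 ± 0.48, edgeR adjusted p = 0.000104). Serpinh1, the collagen chaperone HSP47, had 46, 48.6, 36.1, 42.5, 18.2, 17.8 and 20.2 CPM against 15.4 to 26.2 (0.73 ± 0.19, edgeR adjusted p = 0.00144). Both were highest in the rats with high Col1a1. Fkbp10, Adamts2, Pcolce and P3h1 also rose, and P4ha2, a prolyl hydroxylase subunit, Ppib and Colgalt2 fell. At 3-methylfuran 1.0, 0 of 18 rose by edgeR and 6 fell, among them P4ha2 (-0.93 ± 0.08) and Serpinh1 (-0.34 ± 0.09). Over all genes 21.2% rose and 22.5% fell there.

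Of 5 lysyl oxidase genes, which crosslink collagen, Lox and Loxl1 rose and Loxl4 fell at furan 2.0. Lox had 11.6, 10.1, 6.65, 5.98, 0.684, 0.663 and 0.957 CPM against 0.469 to 1.6 in controls (log2FC 2.56 ± 0.55, edgeR adjusted p = 0.000271). The split of the rats was that of Col1a1. Loxl1 had a log2FC of 1.97 ± 0.47 and Loxl4 of -1.39 ± 0.16. Loxl4 also fell at 3-methylfuran 1.0 (-0.53 ± 0.19).

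Of 8 tested genes of breakdown and its inhibitors 3 rose at furan 2.0: Timp1 (1.56 ± 0.34) and Timp2 (0.63 ± 0.23), inhibitors of matrix metalloproteinases, and Mrc2 (1.60 ± 0.36), a collagen uptake receptor. Mmp14, a membrane collagenase, had -0.11 ± 0.10. Of 8 collagen receptor genes only 3 had enough counts to be tested, and 2 of these rose. They were the discoidin domain receptors, which bind collagen: Ddr1 by 3.00 ± 0.36 and Ddr2 by 1.12 ± 0.34. Ddr1 had 16.5, 18.0, 12.6, 21.1, 2.59, 5.58 and 12.2 CPM against 0.86 to 2.24, so all 7 rats were above every control. Among 14 genes of TGF-beta and PDGF signalling 4 rose, including Tgfb2 (0.97 ± 0.23) and Tgfb3 (1.27 ± 0.31). Tgfbr1, Tgfbr2 and Pdgfrb fell. Over all genes 24.0% rose and 22.5% fell. Tgfb1 had 0.33 ± 0.15 (edgeR adjusted p = 0.0698).

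**Figure D5:**
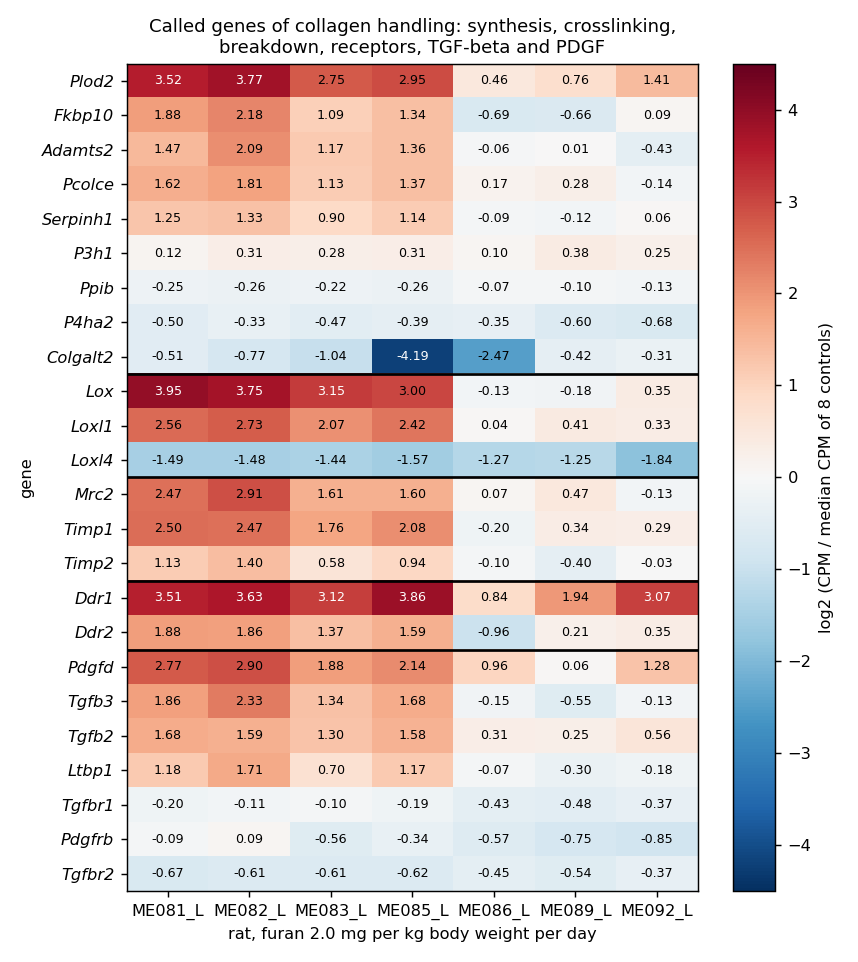
Log2 ratio of each furan 2.0 rat's CPM to the median CPM of the 8 furan controls for the genes of collagen handling that rose or fell, with lines between synthesis, crosslinking, breakdown, receptors, and TGF-beta and PDGF. Lox and Plod2 are raised in the 4 columns on the left, Ddr1 in all 7, and Loxl4 is lower in all 7.

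Summed cholangiocyte, stellate cell, myofibroblast and mesothelial markers were highest in the rats with high Col1a1. Portal fibroblast, macrophage and sinusoidal endothelial sums did not follow that order. Of 8 tested cholangiocyte markers 7 rose at furan 2.0, beside 24.0% of all genes. Their summed level (9 genes) was 75.2, 77.5, 62.2, 70.1, 19.1, 21.7 and 33.0 CPM in the rat order of Col1a1, against 7.35 to 14.5 in controls, so it was above the controls in all 7 rats. Spp1, a secreted marker of bile duct cells, had 30.4, 21.4, 21.7, 20.8, 0.44, 0.221 and 3.27 CPM against 0.174 to 0.625. Stellate cell markers summed (9 genes) to 167, 179, 136, 152, 95.1, 89.4 and 91.3 CPM against 93.9 to 158. Of those 9 Des, Rgs5 and Dcn rose and Pdgfrb fell, and Lrat, which defines quiescent stellate cells, had a log2FC of 0.12 ± 0.19. Myofibroblast and smooth muscle markers (6 genes) summed to 36.5, 37.3, 22, 31.9, 9.38, 7.73 and 19.5 CPM against 10.2 to 22. Des is in this list and in the stellate list, so the sums of these lists are not independent. Acta2, the smooth muscle actin, rose by 1.11 ± 0.44 (edgeR adjusted p = 0.0387).

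Mesothelial markers, which come with the liver capsule, summed (5 genes) to 24.7, 38.5, 21.4, 22.7, 10.8, 7.13 and 6.3 CPM against 2.81 to 20.4, and 1 of 5, Msln, rose. Portal fibroblast markers (8 genes) summed to 255 to 392 CPM at furan 2.0 against 447 to 613. Of 6 tested, Eln, Cd34 and Pi16 rose and Dpt fell, and their median log2FC was 0.36. The lower sum therefore follows the more abundant genes and does not describe the list gene by gene. Macrophage markers summed (11 genes) to 353 to 665 CPM against 405 to 754, and 1 of 11, Trem2, rose. Sinusoidal endothelial markers (8 genes) summed to 162 to 303 CPM against 78.0 to 387. Of the 8, Clec4g and Kdr fell, beside 22.5% of all genes. The listed markers Hhip (stellate), Pkhd1 (cholangiocyte), Pecam1 and Cdh5 (both endothelial) had no entry under those symbols and are in no sum. No other marker of these lists was at 0 in every rat of either group. Rat MD063_L at furan 0.5 had 16.9 CPM of Spp1, 8.71 of Acta2 and 23.7 of Msln. The part of these cell types in the collagen differences was not tested.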

How the data were processed

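Liver mRNA libraries of 70 rats were sequenced in 172 runs. The deposited count tables hold whole read counts per gene and run. STAR 2.7.1a, featureCounts 2.0.0, DESeq2 1.26.0 and Rnor 6.0 are named in the submitters' processing notes. The authors' deposited comparison tables hold a signed fold change (furan, a unit other than a plain ratio), a ratio or fold (3-methylfuran) and an adjusted p-value. Annotation release and strand setting are not given in the sources used here. Runs of a rat were summed (their chi-square over its degrees of freedom was 1.0 to 1.07), giving 11084613 to 50047098 counts per rat.

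Genes passing filterByExpr (minimum count 10) were scaled by TMM and tested in R 4.3.3 with edgeR 4.0.16 (quasi-likelihood F test, robust), 1 fit per experiment and 1 joint fit for the difference between top doses. Benjamini-Hochberg adjustment ran over all genes tested. The fitting script was tested on simulated data. DESeq2 1.42.0, limma 3.58.1 (voom), RLE size factors, no filter, 1 run per rat, top dose and controls only, and leaving out single rats were alternatives. Genes named are the fixed collagens of types I, III, IV, V, VI, XV, XVIII and XXVII plus up to 5 called members per direction at each top dose with a mean of at least 1 CPM; others are said to be chosen later or stand for a class. The members and lists were chosen with earlier results of these data known. Promoter sequences are from RefSeq (GRCr8). A gene of the lists is not reported here.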

Additional observations from a re-analysis of the deposited data

Results flagged for a closer look

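Among 122 groups of rats of named members, 9 held a rat far from the others of its group. Chance alone gives about 1 in 20, and 9 of 122 is not far from that. The groups share rats between genes, so the 9 are not independent. Of these, 5 were rat MD063_L at furan 0.5: Col1a1 91.0 CPM (next rat 36.2), Col3a1 441 (260), Col5a2 24.8 (16.0), Col4a1 88.0 (59.1) and Col12a1 8.55 (4.56). The others were Col4a1 70.1 CPM in MB045_L at furan 0.12 (48), Col3a1 128 in MA524L at 3-methylfuran 0.02 (97.8), Col6a2 30.9 in MB546L (24.5) and the low Col18a1 501 in MB551L (563), both at 3-methylfuran 0.075.

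The top dose effect differed between the 2 experiments in 6 members by the test of the difference itself (edgeR, adjusted p under 0.05). The furan 2.0 effect minus the 3-methylfuran 1.0 effect was 3.35 for Col1a1, 1.53 for Col4a3, 0.86 for Col5a2, 1.14 for Col6a1, 1.39 for Col6a2 and -1.40 for Col20a1 on the log2 scale. Dose, library kit and compound cannot be told apart in this difference.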

How the results depend on the processing

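The number of called members kept within 1.5 times its value at furan 2.0 under every alternative run, with 12 to 17 calls when single rats were left out. At 3-methylfuran 1.0 it was 5 and became 1 with 1 run per rat, where Col11a2 and Col20a1 were not tested; single rats left out gave 5 to 7. Furan 2.0 against 0.5 gave 3, and 5 without the filter on low counts; single rats left out gave 1 to 9, including 9 without MD063_L, chosen after seeing the data. The difference between the top doses gave 6, and 3 with 1 run per rat (Col4a3, Col5a2 and Col20a1 then missed the threshold); single rats left out gave 4 to 10. At the lower doses of either compound the count was 0 under every alternative run.

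Of 371 alternatives for 28 single-member results against controls, 4 called results lost their call (Col6a1 and Col6a2 at 3-methylfuran 1.0 with 1 run per rat, Col12a1 with limma voom and Col20a1 without ME085_L at furan 2.0) and 3 uncalled ones gained it. Not tested for want of counts were Col11a2 and Col20a1 with 1 run per rat at either top dose, and Col5a3 at furan 2.0 with 1 run per rat or with the top dose and controls only. Direction turned only in uncalled results near 0. Col5a2 at 3-methylfuran 1.0 was -0.05 to 0.03 with single rats left out. It was 0 with the top dose and controls only, 0.01 without ME586L, ME590L or ME592L, 0.03 without ME587L and 0 without ME591L, and Col4a2 there was -0.02 with 1 run per rat. No paired analysis was possible because the groups compared share no rat numbers. Few counts limit what can be said of members under about 1 CPM, Col1a2, Col15a1 and Col20a1 among them. Why Col1a2 is low beside Col1a1 was not tested.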
